A study of Equus caballus with 18 samples.

Results

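The genes described here are 47 listed genes of glycolysis, of the pentose phosphate pathway and of the response to low oxygen, followed in the synovial fluid of horses before and after a corticosteroid was put into the joint. They were found by symbol among the probe sets of an equine expression array that carry exactly 1 gene symbol, and a gene with several such probe sets would have been given by the one with the highest mean. Of the 47, 46 were measured, each by 1 probe set, among 16661 named genes. RPIA, an enzyme of the pentose phosphate pathway, shares its only probe set with another symbol and was left out. The 6 adult Thoroughbreds came from a university herd aged 4 to 8 years with no intra-articular medication in the year before, and were each injected with isoflupredone acetate (8 mg), a corticosteroid drug, in the right antebrachiocarpal joint, the upper joint of the carpus. Total RNA of the fluid, and so of whatever cells it held, was profiled at baseline, just before the injection, at 24 h and at 7 days, in 6, 6 and 5 arrays. The design text has the horses back in regular exercise from day 3. Saline-injected horses of the study were not analysed here, and differences between times therefore hold the drug, the injection and the earlier sampling together. Differences that involve day 7 also hold the return to exercise.

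Glycolysis breaks glucose down to pyruvate in the cytosol and yields ATP without oxygen; lactate dehydrogenase then turns pyruvate into lactate, which leaves the cell through monocarboxylate transporters. The pentose phosphate pathway branches off after the first step and supplies NADPH, used in antioxidant defence and in the oxidative burst of phagocytes, and ribose for nucleotides. In human and mouse cells the transcription factor HIF1A is marked for breakdown by oxygen-dependent prolyl hydroxylases and the VHL protein, and when oxygen is scarce it builds up and raises the transcription of many glycolytic genes. Inflammatory macrophages are known for a high glycolytic rate.

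At day 7 the columns for horses 1 and 2 agreed exactly in 99.3% of probe sets, against 2.05% in the next closest pair of columns. They were averaged and counted as 1 array, which leaves 5 comparisons with baseline at day 7, that of horses 1 and 2 together and those of the other 4 horses. Levels are log2 expression values and changes are log2 differences within horses, so a change of 1 is a doubling. The standard deviation of the values within an array was 1.22 to 1.50 at baseline, 1.40 to 1.73 at 24 h and 1.53 to 1.82 at day 7. The mean level of 9 measured macrophage markers was 5.30 to 6.09 in the baseline arrays, 5.69 to 8.60 at 24 h and 6.89 to 8.63 at day 7, so that every day 7 array lay above every baseline array. Of these 9 markers 1 rose at 24 h and 6 rose at day 7 in limma. CD163, a haemoglobin scavenger receptor of macrophages, changed by 4.78 at 24 h (adjusted p = 0.000132) and by 4.11 at day 7 (adjusted p = 0.000345) against baseline in limma. The 7 neutrophil markers averaged 3.86 to 4.96 at baseline, 3.88 to 6.58 at 24 h and 3.42 to 4.03 at day 7. At 24 h 1 of 9 NK or cytotoxic markers fell, and at day 7, 1 of 7 neutrophil markers, 4 of 10 T cell markers, 2 of 9 NK or cytotoxic markers and 2 of 5 B cell markers fell. None of the 8 fibroblast, 6 endothelial and 5 red cell markers passed the test at either time, and 1 of 7 chondrocyte markers fell at day 7. Among all named genes 0.72% rose and 0.126% fell at 24 h, and 18% rose and 8.43% fell at day 7. In the brightest of 4 equal classes of probe sets, which holds the macrophage markers that rose, 42.1% of named genes rose at day 7. In bulk RNA, a larger share of cells of a type and more RNA of a gene per cell cannot be told apart, and the part of these cell markers in the results below was not tested.

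At 24 h against baseline, 2 of the 46 genes rose and 0 fell (4.35%). They were PFKFB3, which makes the activator of phosphofructokinase, and TALDO1, the transaldolase of the pentose phosphate pathway. The test was limma with the horse as a block and an adjusted p under 0.05 over all 30559 probe sets, of which 1.01% passed at 24 h. Among all named genes 0.72% rose, 0.126% fell, and 2.48% rose among named genes in the brightest of 4 equal classes of probe sets, where 31 of the 46 genes lie. Another 19 of the genes had an unadjusted p under 0.05 without passing, as the 46 held 21 such genes in all (45.7%), against 16.4% of named genes. That share is not given here for the brightest class alone. The median change of the 46 genes was 0.60, against 0.01 for all named genes and 0.38 for those of the brightest class, where the 31 members had a median of 0.83.

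At day 7 against baseline, 26 of the 46 genes rose and 0 fell (56.5%). The risers were 5 of 9 genes of glucose entry and the first steps of glycolysis, 7 of 9 of lower glycolysis, 5 of 6 of pyruvate and lactate handling, 3 of 5 of the pentose phosphate pathway, 4 of 4 of oxygen sensing and 2 of 10 hypoxia responders, while 0 of 3 regulators of phosphofructokinase passed. The day 7 arrays differed from baseline widely, since 27.3% of all probe sets passed, and 18% of named genes rose and 8.43% fell. In the brightest class 42.1% of named genes rose, against 20 of the 31 members there (64.5%). The median change of the 46 genes was 1.26, against -0.04 for all named genes and 0.75 for those of the brightest class, where the members had a median of 1.49. For 16 of the 46 genes every day 7 array lay above every baseline array, which held for 5.41% of named genes and for 13.8% of those in the brightest class. With the standard deviation of each array as a covariate, 0 of the 46 genes and 0 of all probe sets passed at day 7 and 14 of the 26 had a change below 0, so the calls end under this setting. The ranges of that standard deviation at day 7 and at baseline did not overlap.

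**Figure D1:**
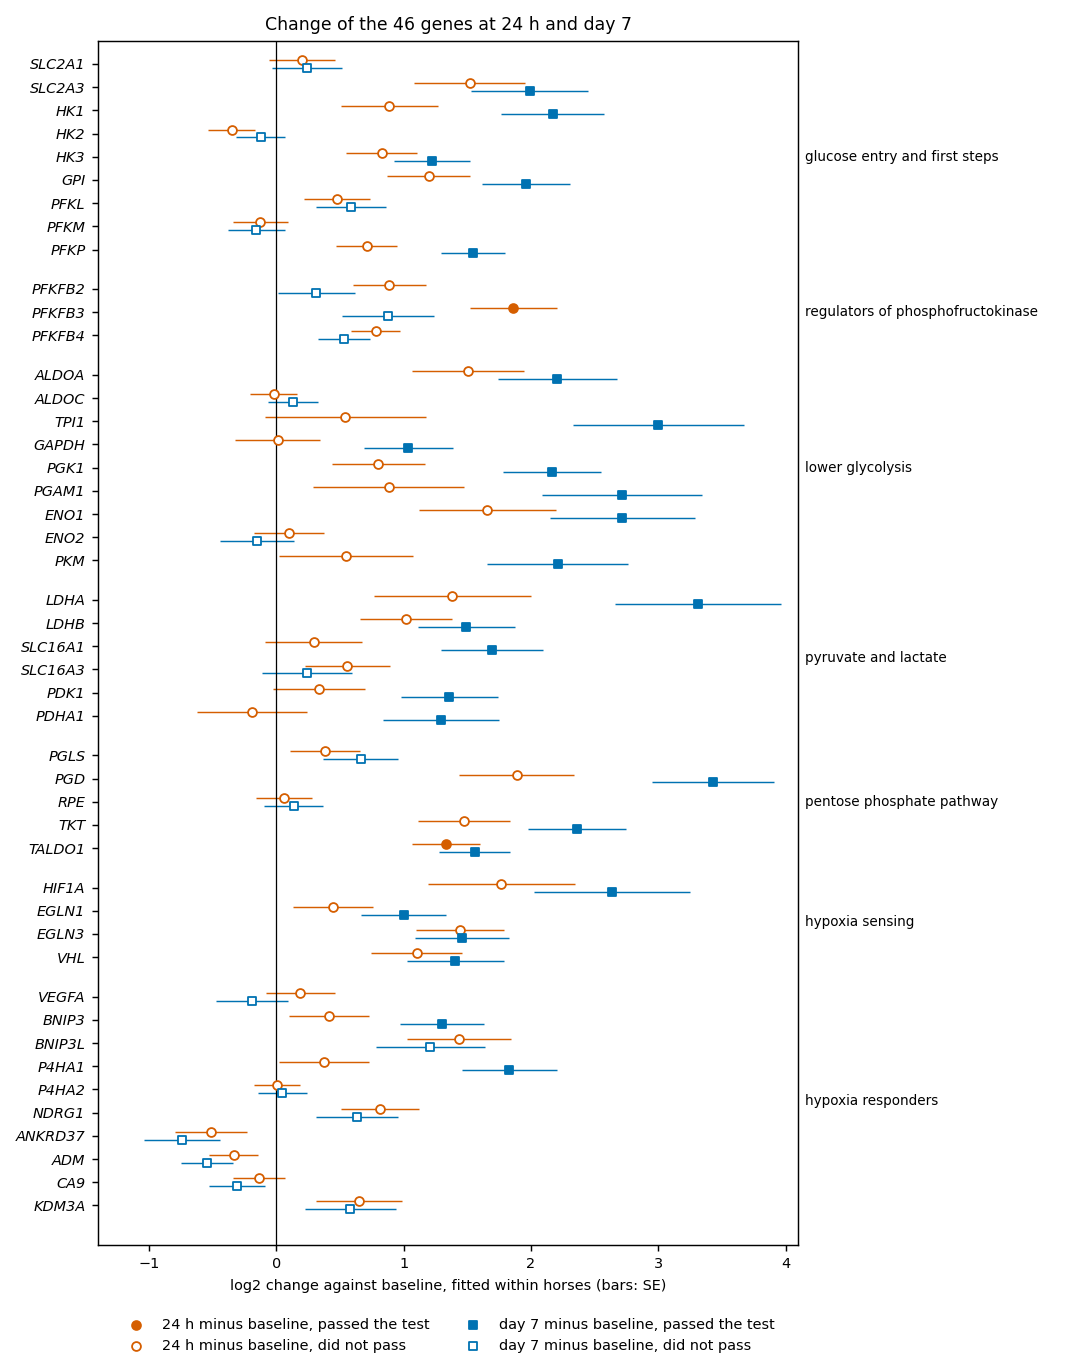
Change of each of the 46 genes against baseline on the log2 scale (x axis), fitted within horses with bars of 1 standard error, by role from glucose entry at the top to hypoxia responders at the bottom; circles are 24 h and squares day 7, filled where the gene passed the test. PFKFB3 and TALDO1 are filled at 24 h and 26 genes at day 7, most of them between glucose entry and oxygen sensing, while the regulators of phosphofructokinase and most hypoxia responders are open at day 7.

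Glucose entry and the first steps of glycolysis were covered by 9 genes, and 5 rose at day 7. PFKP, the platelet form of phosphofructokinase, which commits glucose to glycolysis, ranged between 4.75 and 5.47 (median 5.27) in the 6 baseline arrays and between 5.23 and 6.97 (median 5.86) at 24 h, and was 6.39 in the day 7 array of horses 1 and 2 and 7.14, 7.18, 6.58 and 6.49 in those of horses 3, 4, 5 and 6. Every day 7 array stood above every baseline array, and the 24 h arrays lay between and overlapped both. Its change at day 7 was 1.54 ± 0.25 (SE), 2.92-fold, with limma's adjusted p = 0.00448 and higher in 5 of 5 horse comparisons. GPI, the isomerase that turns glucose phosphate into fructose phosphate, ranged between 5.72 and 7.22 (median 6.71) at baseline and between 6.66 and 8.72 (median 7.96) at 24 h, with 7.88, 8.81, 8.91, 8.74 and 8.56 at day 7. Again the day 7 and baseline arrays did not overlap, and the change was 1.96 ± 0.35 (3.89-fold, adjusted p = 0.00575). PFKM, the muscle form of phosphofructokinase, had the lowest change of the group, with 3.66 to 4.57 (median 4.02) at baseline, 3.81 to 4.13 (median 3.90) at 24 h and 4.48, 3.85, 3.22, 3.57 and 4.25 at day 7. The day 7 arrays of horses 4 and 5 lay below every baseline array and the other 3 within the baseline range. Its change of -0.16 ± 0.23 at day 7 had an adjusted p of 0.608.

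Of the glucose transporters, SLC2A3 changed by 1.99 at day 7 (adjusted p = 0.0123) and SLC2A1 by 0.24 (adjusted p = 0.505). Of the hexokinases, which trap glucose in the cell as its phosphate, HK1 changed by 2.17 (adjusted p = 0.00661) and HK3, a form of blood cells, by 1.22 (adjusted p = 0.0145), both with no overlap between day 7 and baseline arrays. HK2 changed by -0.12 (adjusted p = 0.633), and PFKL, the liver form of phosphofructokinase, by 0.59 (adjusted p = 0.114). None of the 9 passed at 24 h, where changes ran between -0.35 for HK2 and 1.52 for SLC2A3.

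The regulators of phosphofructokinase are enzymes that make and break down a sugar bisphosphate that activates it, and of them 1 of 3 rose at 24 h and 0 of 3 passed at day 7. PFKFB3, the form with the strongest kinase activity, ranged between 5.20 and 6.41 (median 5.90) at baseline and between 6.77 and 9.31 (median 7.51) at 24 h, with 6.39, 6.61, 7.42, 6.45 and 6.84 at day 7. All 6 arrays at 24 h were above all 6 at baseline, and the highest was that of horse 3. This pattern was found in 0.462% of named genes and in 1.03% of those in the brightest class, where PFKFB3 lies. Its change at 24 h was 1.86 ± 0.34 (3.63-fold, adjusted p = 0.0322, higher in 6 of 6 horses), and horse by horse it ran between 0.81 in horse 2 and 4.04 in horse 3. At day 7 the change against baseline was 0.88 ± 0.36 (adjusted p = 0.0807, higher in 5 of 5). PFKFB4 ranged between 4.16 and 5.43 (median 5.04) at baseline and between 4.93 and 6.23 (median 5.83) at 24 h, with 5.43, 5.36, 5.66, 5.28 and 5.57 at day 7, so the groups overlapped at both times. It changed by 0.78 ± 0.19 at 24 h (adjusted p = 0.0648, higher in 6 of 6 horses) and by 0.53 ± 0.20 at day 7 (adjusted p = 0.0673). PFKFB2 ranged between 3.48 and 4.36 (median 4.13) at baseline and between 3.93 and 5.80 (median 4.97) at 24 h, with 4.01, 4.20, 4.28, 4.43 and 4.66 at day 7. Its highest values were the 24 h arrays of horses 4, 5 and 6, and its changes of 0.89 at 24 h (adjusted p = 0.123) and 0.32 at day 7 (adjusted p = 0.435) did not pass.

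The 24 h call of PFKFB3 was kept in 12 of 23 fits that left out a horse or an array. For horse 1 or 2 this dropped its baseline and 24 h arrays only, and the day 7 array counted for both stayed. The call was lost without horse 4, 5 or 6, or when their 24 h arrays alone were dropped. It was also lost without the baseline array of horse 3, 5 or 6 or the day 7 array of horse 4 or 6, with changes between 1.43 and 2.07 in all 23 fits. After quantile normalization its change was 1.55 with an adjusted p of 0.0903.

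**Figure D2:**
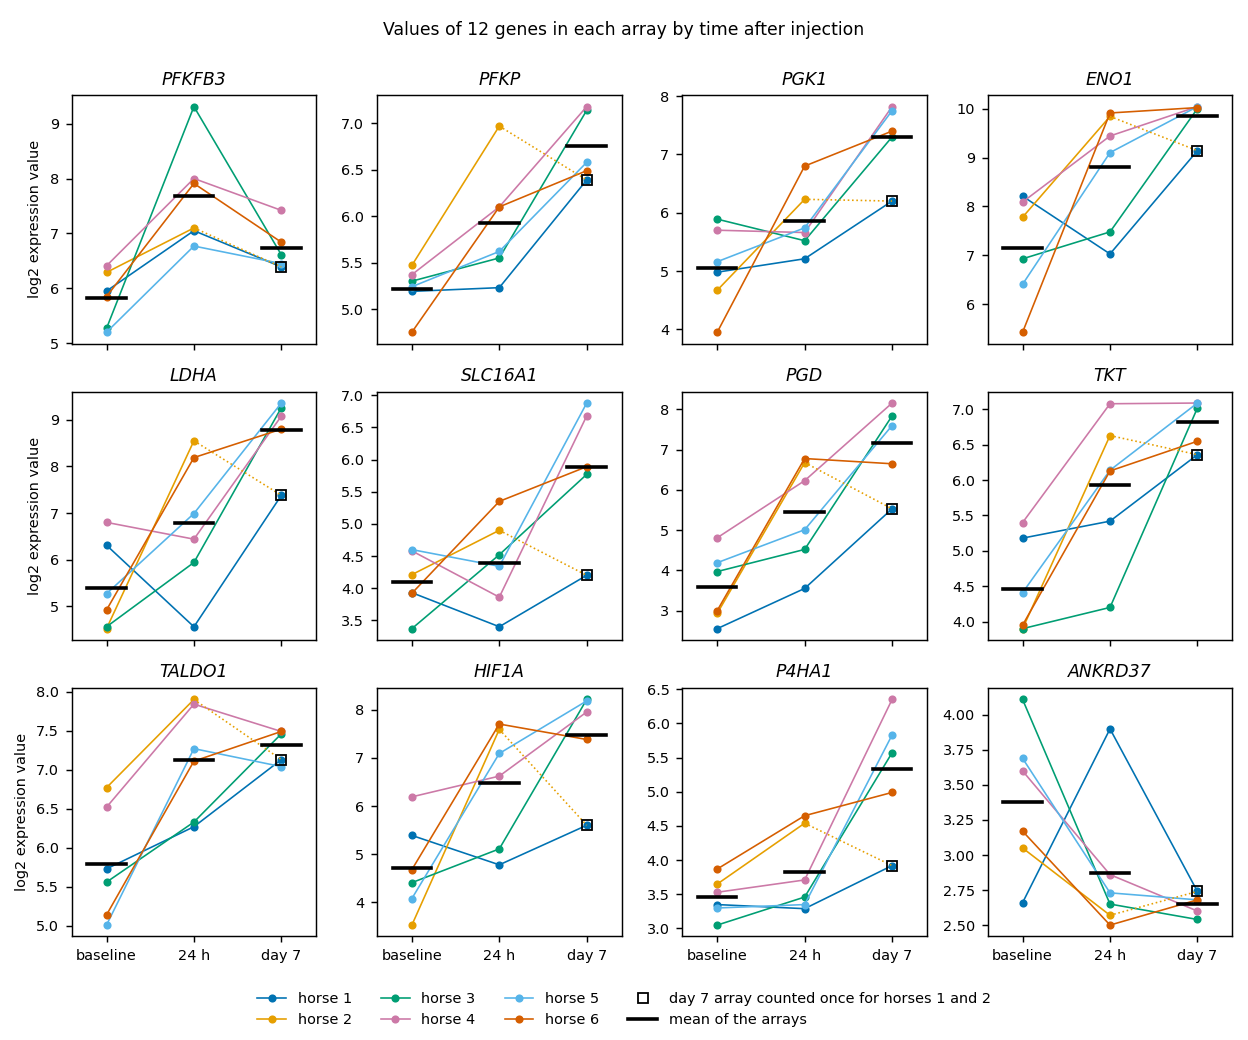
Log2 expression value (y axis, a scale of its own per panel) of 12 genes at baseline, 24 h and day 7; each line is a horse, the squared point is the array counted once for horses 1 and 2, and black bars are means of the arrays. PFKFB3 is highest at 24 h in every horse, PGD, TKT and PGK1 are highest in most horses at day 7, and ANKRD37 lies between 2.54 and 2.74 in every day 7 array.

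Lower glycolysis, from aldolase to pyruvate kinase, had 7 of 9 risers at day 7 and 0 of 9 at 24 h. PGK1, which makes the first ATP of the pathway, ranged between 3.95 and 5.89 (median 5.07) at baseline and between 5.21 and 6.80 (median 5.70) at 24 h, with 6.20, 7.30, 7.82, 7.75 and 7.40 at day 7. Day 7 and baseline arrays did not overlap, and the lowest of the day 7 arrays was the one shared by horses 1 and 2. The change was 2.17 ± 0.39 (4.48-fold, adjusted p = 0.00579). ENO1, the common enolase, ranged between 5.43 and 8.21 (median 7.36) at baseline and between 7.03 and 9.91 (median 9.27) at 24 h, with 9.14, 10, 10.04, 10.04 and 10.02 at day 7. The day 7 arrays of horses 3 to 6 were almost equal and the baseline arrays widely spread, and the change at day 7 was 2.72 ± 0.57 (6.57-fold, adjusted p = 0.00925). ENO2, the neuronal enolase, ranged between 3.53 and 5.31 (median 4.35) at baseline and between 4.21 and 4.87 (median 4.52) at 24 h, with 4.54, 3.83, 4.22, 4.14 and 4.81 at day 7. It was higher in 2 and lower in 3 of 5 horse comparisons at day 7, with a change of -0.15 ± 0.29 (adjusted p = 0.699).

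TPI1, triose phosphate isomerase, changed by 3.00 at day 7 (8.01-fold, adjusted p = 0.0111), PGAM1, phosphoglycerate mutase, by 2.71 (6.56-fold, adjusted p = 0.0123), PKM, pyruvate kinase, by 2.21 (4.63-fold, adjusted p = 0.0159) and ALDOA, the common aldolase, by 2.21 (4.61-fold, adjusted p = 0.00946). In each of these the day 7 arrays stood above all baseline arrays. ALDOC, the brain aldolase, changed by 0.13 (adjusted p = 0.624). GAPDH, often used as a reference gene, changed by 0.01 at 24 h (adjusted p = 0.992) and by 1.04 at day 7 (2.05-fold, adjusted p = 0.0433). Its day 7 call was kept in 9 of 23 fits without a horse or an array, and was lost among others without horse 3, 4, 5 or 6. At 24 h TPI1, PGAM1, PKM and GAPDH were lower than baseline in horse 1, by amounts between -2.36 for PKM and -1.35 for GAPDH. They were higher in horses 2, 5 and 6. Their changes at 24 h were 0.54 for TPI1, 0.88 for PGAM1 and 0.55 for PKM, none past the test.

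Of the 6 genes of pyruvate and lactate handling, 5 rose at day 7 and 0 at 24 h. LDHA, the lactate dehydrogenase subunit that favours lactate, ranged between 4.52 and 6.80 (median 5.10) at baseline and between 4.56 and 8.55 (median 6.72) at 24 h, with 7.38, 9.26, 9.08, 9.36 and 8.80 at day 7. At 24 h the 6 arrays ran from below the baseline median, in horse 1, to the range of day 7, in horses 2 and 6. The change at day 7 was 3.31 ± 0.65 (9.92-fold, adjusted p = 0.00755, higher in 5 of 5), with no overlap with baseline. LDHB, the heart subunit, changed by 1.49 (2.81-fold, adjusted p = 0.0172).

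SLC16A1, a monocarboxylate transporter of most cells, ranged between 3.37 and 4.60 (median 4.07) at baseline and between 3.40 and 5.35 (median 4.43) at 24 h, with 4.20, 5.77, 6.68, 6.88 and 5.89 at day 7. The array of horses 1 and 2 lay within the baseline range and the other 4 above it. The change was 1.70 ± 0.40 (3.24-fold, adjusted p = 0.0131), and the call was lost without horse 3, horse 5 or the day 7 array of horse 5. SLC16A3, the transporter known for lactate export from glycolytic cells, ranged between 5.38 and 7.64 (median 6.47) at baseline and between 6.39 and 7.92 (median 6.73) at 24 h, with 6.46, 7.39, 6.46, 6.23 and 6.77 at day 7. It had the lowest change of the group, 0.24 ± 0.35 (adjusted p = 0.612). PDK1, the kinase that restrains pyruvate dehydrogenase, changed by 1.36 at day 7 (adjusted p = 0.0231), and PDHA1, a catalytic subunit of pyruvate dehydrogenase itself, by 1.29 (adjusted p = 0.0495), higher in 4 of 5. The call of PDHA1 was kept in 6 of 23 fits without a horse or an array and that of PDK1 in 15.

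In the pentose phosphate pathway 1 of 5 genes rose at 24 h and 3 at day 7. PGD, phosphogluconate dehydrogenase, which yields NADPH, ranged between 2.55 and 4.81 (median 3.49) at baseline and between 3.55 and 6.78 (median 5.62) at 24 h, with 5.53, 7.84, 8.16, 7.60 and 6.65 at day 7. No day 7 array reached down to the baseline range. Its change of 3.43 ± 0.48 at day 7 (10.8-fold, adjusted p = 0.00249) had the highest value and the smallest p of the 46 genes. At 24 h the change was 1.89 ± 0.45 (3.70-fold, adjusted p = 0.0593), higher in 6 of 6 horses and just outside the threshold. TKT, transketolase, ranged between 3.90 and 5.40 (median 4.18) at baseline and between 4.20 and 7.08 (median 6.14) at 24 h, with 6.36, 7.02, 7.09, 7.09 and 6.55 at day 7. Day 7 and baseline did not overlap, the change was 2.36 ± 0.38 (5.14-fold, adjusted p = 0.00448), and at 24 h it was 1.48 ± 0.36 (adjusted p = 0.0629, higher in 6 of 6).

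TALDO1, transaldolase, ranged between 5.01 and 6.77 (median 5.65) at baseline and between 6.27 and 7.90 (median 7.19) at 24 h, with 7.13, 7.46, 7.49, 7.04 and 7.49 at day 7. The 24 h arrays of horses 1 and 3 lay within the baseline range, and each horse was above its own baseline at 24 h. Its change was 1.33 ± 0.26 at 24 h (2.52-fold, adjusted p = 0.0387) and 1.56 ± 0.28 at day 7 (2.95-fold, adjusted p = 0.00582). The 24 h call was kept in 7 of 23 fits that left out a horse or an array, and was lost without any one of horses 2 to 6, without their single arrays at baseline or 24 h except the baseline array of horse 4 and the 24 h array of horse 3, and without the day 7 array of horse 4, 5 or 6. RPE, the epimerase of ribulose phosphate, had the lowest change, 0.14 ± 0.23 at day 7 (adjusted p = 0.664), with 4.24 to 5.20 (median 4.69) at baseline, 4.36 to 5.12 (median 4.82) at 24 h and 4.53, 5.01, 4.67, 5.26 and 4.75 at day 7. PGLS, the lactonase of the pathway, had every day 7 array above baseline with a change of 0.66 (adjusted p = 0.0999).

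All 4 genes of oxygen sensing rose at day 7, when 18% of named genes rose, and 0 at 24 h. In all 4 the day 7 and baseline arrays overlapped. In limma after quantile normalization HIF1A (adjusted p = 0.03) and VHL (adjusted p = 0.0484) passed at day 7. EGLN3 (adjusted p = 0.0834) and EGLN1 (adjusted p = 0.103) then did not. HIF1A, the oxygen-regulated subunit of hypoxia-inducible factor, ranged between 3.53 and 6.19 (median 4.55) at baseline and between 4.78 and 7.70 (median 6.86) at 24 h, with 5.60, 8.21, 7.95, 8.18 and 7.38 at day 7. The array of horses 1 and 2 fell within the baseline range and the other 4 above it. The change was 2.64 ± 0.61 at day 7 (6.22-fold, adjusted p = 0.0125) and 1.77 ± 0.58 at 24 h (adjusted p = 0.124), and the day 7 call was lost without horse 5. These are transcript values, whereas HIF1A is known to be controlled mainly as a protein. EGLN3, a prolyl hydroxylase that is itself a target of the factor, ranged between 4.29 and 5.96 (median 5.33) at baseline and between 5.32 and 7.78 (median 7.06) at 24 h, with 5.28, 6.29, 6.98, 7.05 and 8.59 at day 7. Its changes were 1.44 ± 0.35 at 24 h (adjusted p = 0.0609) and 1.46 ± 0.37 at day 7 (adjusted p = 0.0164, lost without horse 5, horse 6 or the day 7 array of horse 3). EGLN1, the main prolyl hydroxylase of most cells, ranged between 3.32 and 4.81 (median 4.04) at baseline and between 3.73 and 5.27 (median 4.52) at 24 h, with 4.29, 4.81, 5.70, 5.64 and 5.01 at day 7. Its change of 1.00 ± 0.33 (adjusted p = 0.0405) was the lowest of the 4 and its call was kept in 10 of 23 fits without a horse or an array. VHL, the subunit that tags hydroxylated HIF1A for breakdown, changed by 1.41 (adjusted p = 0.0201).

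Of the 10 hypoxia responders, which lie outside glycolysis, 2 rose at day 7 and 0 at 24 h. These counts are near the shares of all named genes that rose, 18% at day 7 and 0.72% at 24 h. In the brightest class, which holds BNIP3, BNIP3L, NDRG1, CA9 and KDM3A, 42.1% of named genes rose at day 7. In the third class, with P4HA1, 878 of 5279 named genes rose. In the next, with VEGFA, P4HA2 and ADM, 170 of 4666 rose, and in the dimmest, with ANKRD37, 1 of 2070. The change at day 7 was below 0 in 4 of the 10. P4HA1, a collagen prolyl hydroxylase subunit, ranged between 3.05 and 3.87 (median 3.44) at baseline and between 3.29 and 4.65 (median 3.59) at 24 h, with 3.92, 5.57, 6.35, 5.83 and 4.99 at day 7. The 24 h and baseline arrays overlapped, and the day 7 arrays stood above baseline, that of horses 1 and 2 by little. The change was 1.83 ± 0.37 (3.55-fold, adjusted p = 0.00848). BNIP3, a receptor for the removal of mitochondria, ranged between 4.01 and 5.55 (median 4.71) at baseline and between 4.52 and 5.74 (median 5.18) at 24 h, with 5.16, 5.71, 6.84, 6.61 and 5.74 at day 7. It changed by 1.30 ± 0.33 (2.46-fold, adjusted p = 0.0172), with a call kept in 17 of 23 fits without a horse or an array, and its relative BNIP3L by 1.21 (adjusted p = 0.0511) after 1.43 at 24 h (adjusted p = 0.0883).

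ANKRD37, an ankyrin repeat gene that human cells induce in low oxygen, had the lowest change of the 46 genes in the deposited values, and ranged between 2.66 and 4.11 (median 3.39) at baseline and between 2.50 and 3.90 (median 2.69) at 24 h, with 2.74, 2.54, 2.60, 2.68 and 2.68 at day 7. It was lower in 5 of 5 horse comparisons, with -0.74 ± 0.30 (adjusted p = 0.0755). After quantile normalization its change was -0.34, and that of CA9 was lower, -0.53. The value at 24 h in horse 1 was above that horse's baseline. ADM, the vasodilator peptide adrenomedullin, was also lower in 5 of 5, by -0.54 (adjusted p = 0.0621), or -0.25 after quantile normalization. These 2 were the members lower in all 5, as were 16.3% of named genes. These genes lie in the dimmer 2 of the 4 classes of probe sets, where named genes had median changes below 0 at day 7. CA9, a carbonic anhydrase, changed by -0.31 (adjusted p = 0.280), VEGFA, the vascular growth factor, by -0.19 (adjusted p = 0.618), P4HA2 by 0.05 (adjusted p = 0.862), NDRG1 by 0.63 (adjusted p = 0.146) and KDM3A, a histone demethylase, by 0.58 (adjusted p = 0.221).

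The median change of the 46 genes at 24 h was -0.07 in horse 1, 0.89 in horse 2, 0.25 in horse 3, 0.25 in horse 4, 0.57 in horse 5 and 1.32 in horse 6. At day 7 it was 0.41 for horses 1 and 2, 1.48 in horse 3, 1.02 in horse 4, 1.64 in horse 5 and 1.15 in horse 6, all above 0. Over all named genes the medians of single horses stayed between -0.02 and 0.03 at 24 h and between -0.11 and 0.09 at day 7. At day 7, 29 of the 46 genes were higher in all 5 comparisons, as were 21.2% of named genes, and at 24 h 8 were higher in all 6 horses, as were 4.20% of named genes. Of these genes, 24 of the 29 and all 8 lay in the brightest class, which holds 31 of the 46. The 24 h array of horse 2 had a standard deviation of 1.73, within the day 7 range, and without it the change of TPI1 at 24 h was -0.02 and that of PGD 1.48 (adjusted p = 0.156).

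**Figure D3:**
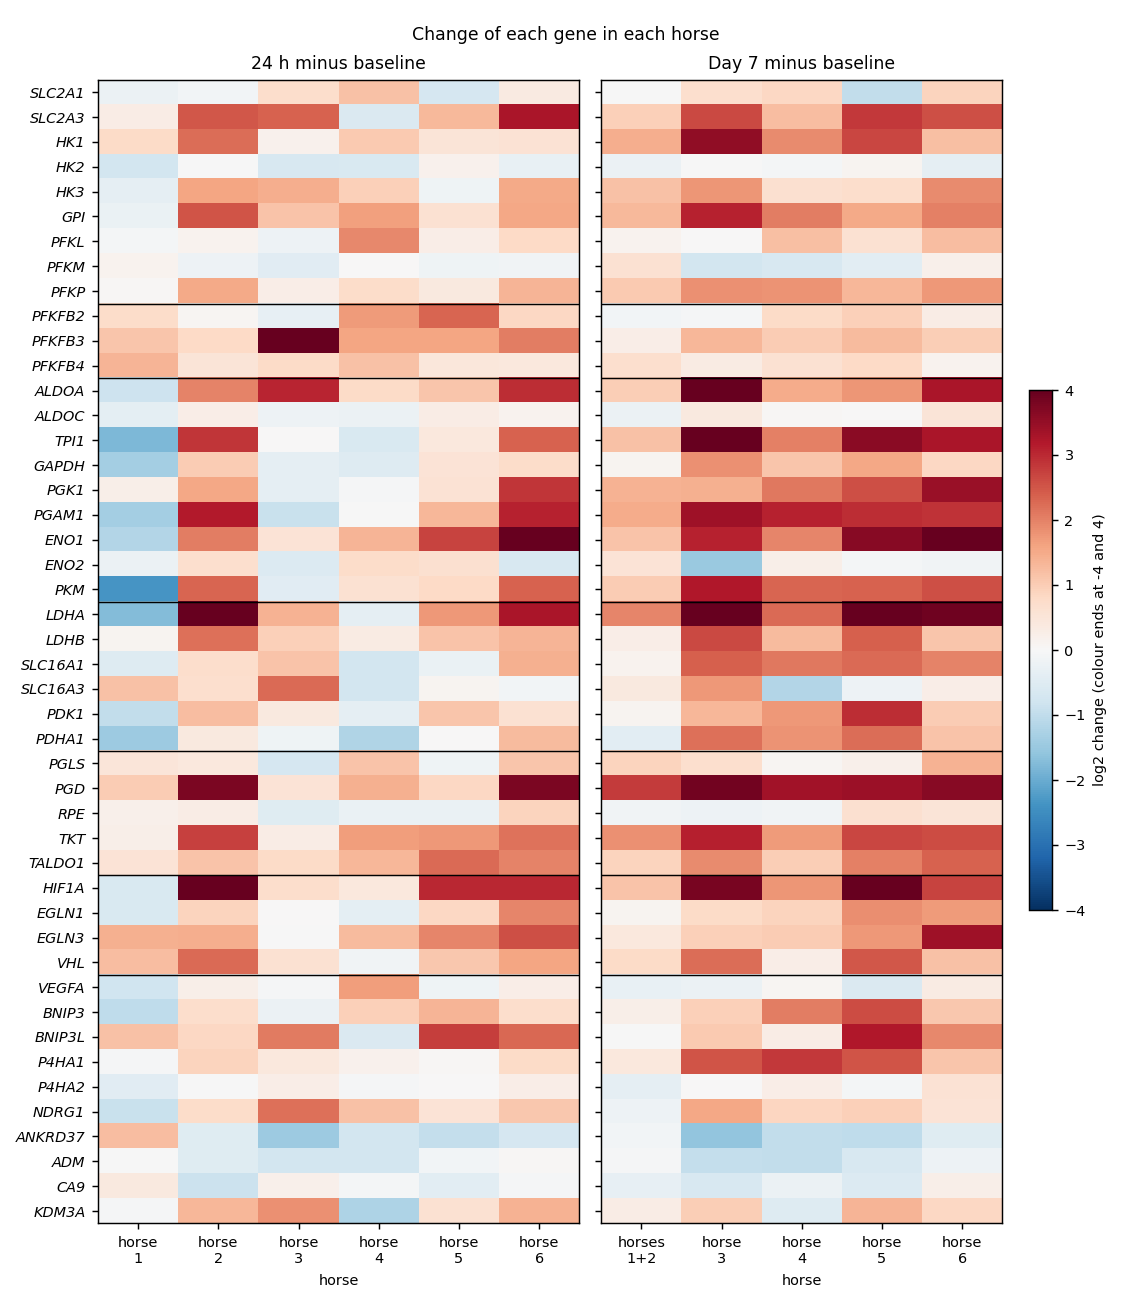
Log2 change of each of the 46 genes (rows, by role from top to bottom) in each horse (columns), with 24 h minus baseline on the left and day 7 minus baseline on the right; red is higher than baseline, blue lower, and colour ends at 4 in both directions. At 24 h horse 1 is blue for the genes of lower glycolysis except PGK1, horse 2 is red for all of them and horse 6 for all but ENO2, and at day 7 most rows are red in all columns, palest for the array shared by horses 1 and 2.

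Counts of calls moved with single arrays. At 24 h, where 2 genes passed, the count was 13 (12 higher, 1 lower) without the baseline array of horse 1, 7 when horse 1 was left out and 5 when horse 3's 24 h array was. The calls over all probe sets were then 1257, 427 and 249, against 310 with every array. The count was 1 without horse 2 or 3, the baseline or 24 h array of horse 2, or the day 7 array of horse 5. In those fits 47 to 141 probe sets passed. The count was 0 without horse 4, 5 or 6, or with only their 24 h arrays dropped. It was 0 too without the baseline array of horse 3, 5 or 6 or the day 7 array of horse 4 or 6. In these fits 5 to 126 probe sets passed. The count was also 0 after quantile normalization (107 probe sets) or with the standard deviation of each array as a covariate (1 probe set). It was 1 with no block for the horse (437 probe sets). With only 1 probe set per gene tested it was 4 (221 probe sets), the added genes being PGD and EGLN3. At day 7, where 26 passed, 12 did without horse 5, 15 without horse 3 and 17 without the day 7 array of horse 3, and 18 passed after quantile normalization. Calls over all probe sets moved with them, to 1761, 2362, 2577 and 2858 in these 4 fits, against 8343 with every array and the deposited values. Leaving out horse 5 ended the calls of SLC2A3, TPI1, GAPDH, PGAM1, PKM, LDHB, SLC16A1, PDK1, PDHA1, HIF1A, EGLN1, EGLN3, VHL and BNIP3. Those of SLC2A3, HK3, GAPDH, PKM, LDHB, SLC16A1, PDK1, PDHA1, EGLN1, VHL and BNIP3 ended without horse 3. Quantile normalization ended the day 7 calls of HK3, GAPDH, PKM, PDK1, PDHA1, EGLN1, EGLN3 and BNIP3. Centring each array on its median moved the median change of all named genes at day 7 by over 0.1, to 0.11 against -0.04, and 27 of the 46 genes then rose. Over all probe sets 6447 passed in that fit. HK1, GPI, PFKP, ALDOA, PGK1, ENO1, LDHA, PGD, TKT, TALDO1 and P4HA1, 11 of the 26, kept their day 7 call in all 23 fits that left out a horse or an array. In the fits without horse 1 or 2 the day 7 array counted for both was kept.

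Changes were larger for brighter probe sets across the whole array. Named genes had a median change at day 7 of -0.44 in the dimmest class of probe sets, -0.26 in the next, 0.04 in the third and 0.75 in the brightest. Of the 46 genes, 1 lay in the dimmest class, 4 in the next, 10 in the third and 31 in the brightest, with median changes of -0.74, -0.16, 1.15 and 1.49. At 24 h the medians of named genes from dim to bright were -0.25, -0.11, 0.06 and 0.38, and those of the members -0.51, -0.17, 0.31 and 0.83. The part of brightness in the changes was not tested beyond these values.

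**Figure D4:**
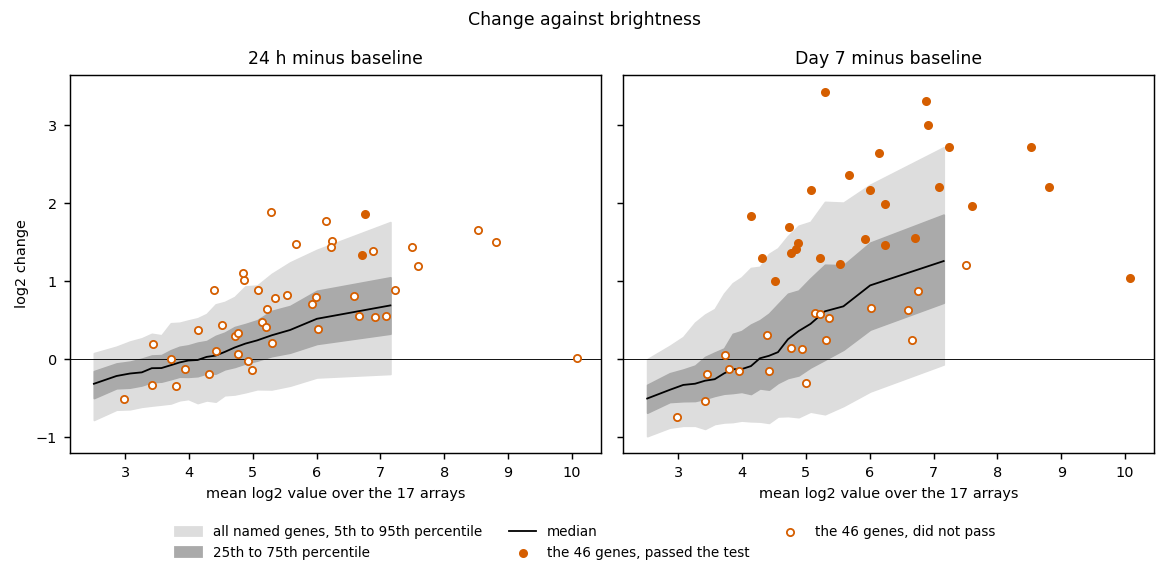
Log2 change (y axis) against the mean log2 value over the 17 arrays (x axis), at 24 h on the left and day 7 on the right, for the 46 genes (points, filled where they passed the test) and for all named genes in 20 bins of brightness (line: median, dark band: 25th to 75th percentile, light band: 5th to 95th). The line climbs with brightness in both panels, and at day 7 PGD, LDHA, TPI1, P4HA1, HK1, TKT and HIF1A are among the genes above the light band.

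Related enzymes and transporters were compared within arrays in 15 pairs, by the difference between the changes of both genes, by an exact two-sided test that flips signs over horses. A shift of equal size for all genes of an array cancels in such a difference, but a shift that depends on brightness does not. Partners differed in brightness: by mean level among named genes ENO1 lay at percentile 99.6 and ENO2 at 57.4, ALDOA at 99.7 and ALDOC at 73.8, and HK2 at 35.5 and HK1 at 77.8. The part of brightness in the pair differences was not tested. At day 7 HK2 moved less than HK1 by -2.27 ± 0.82 (SD, n = 5; exact p = 0.0625), in 5 of 5. ENO1 moved more than ENO2 by 3.07 ± 1.82, ALDOA more than ALDOC by 2.18 ± 1.07, LDHA more than LDHB by 1.85 ± 0.64, P4HA1 more than P4HA2 by 1.80 ± 1.05, SLC2A3 more than SLC2A1 by 1.76 ± 1.29, PFKP more than PFKM by 1.75 ± 0.85 and PFKFB3 more than PFKFB2 by 0.60 ± 0.48 (SD, n = 5 each), all in 5 of 5 comparisons. With 5 comparisons 0.0625 is the smallest exact p the design allows, so no pair could pass, and the smallest value adjusted over the 15 pairs was 0.117. SLC16A3 moved less than SLC16A1 by -1.57 ± 1.41, lower in 4 of 5 (exact p = 0.125). PDK1 and PDHA1 differed by 0.04 ± 0.62, with single comparisons between -0.86 and 0.72 (exact p = 1.000). At 24 h HK2 moved less than HK1 by -1.24 ± 0.70 and P4HA1 more than P4HA2 by 0.37 ± 0.31 in 6 of 6 horses (SD, n = 6; exact p = 0.0312 each, adjusted 0.156). At that time BNIP3 moved less than BNIP3L in 5 of 6 horses, by -1.02 ± 1.47 (exact p = 0.156), and at day 7 the pair differed by 0.10 ± 1.03.

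**Figure D5:**
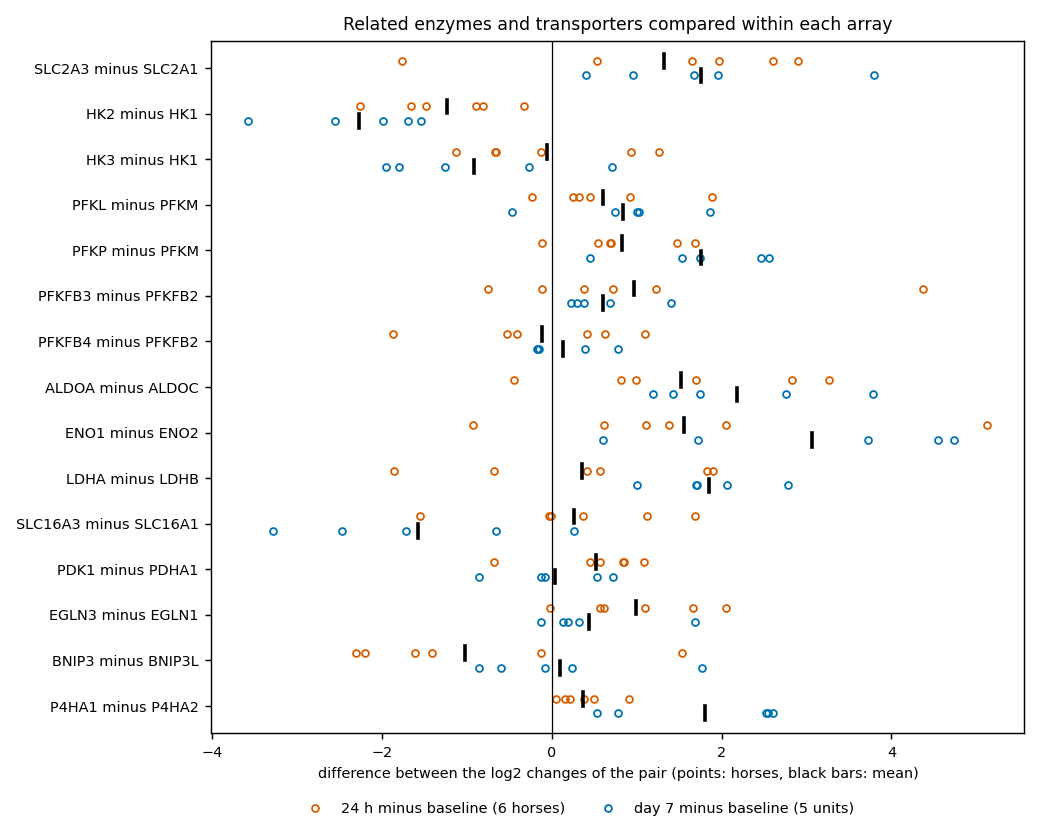
Difference between the log2 changes of related genes (x axis, first gene minus second) for 15 pairs; points are horses at 24 h (upper points of a pair, 6 horses) and at day 7 (lower points, 5 comparisons, horses 1 and 2 counted once), and black bars are means. All points lie right of 0 for ENO1, ALDOA, LDHA and P4HA1 against their partners at day 7, and all lie left of 0 for HK2 against HK1 at both times.

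Day 7 was also set against 24 h directly. In limma 0 of the 46 genes and 0% of all probe sets passed, and 17 of the 46 (37%) had an unadjusted p under 0.05, against 13.9% of named genes. Of the 46 genes, 31 lie in the brightest class, for which that share is not given here. The 3 regulators of phosphofructokinase all had lower values at day 7 than at 24 h, with changes of -0.99 ± 0.36 for PFKFB3 (limma's adjusted p = 0.298, lower in 5 of 5), -0.57 for PFKFB2 (adjusted p = 0.423) and -0.25 for PFKFB4 (adjusted p = 0.559). No other member was lower in all 5. TPI1 had the highest change, 2.46 ± 0.67 (adjusted p = 0.224), followed by LDHA with 1.93 (adjusted p = 0.279), PGAM1 with 1.83 (adjusted p = 0.283) and PKM with 1.66 (adjusted p = 0.277). HK1, PFKP, TPI1, PGD and P4HA1 passed when horse 2 was left out and the array shared with horse 1 was kept. Over all probe sets 610 passed in that fit. TPI1 alone of the 46 passed without the 24 h array of horse 2, where 430 probe sets did. P4HA1 alone passed without the array counted for horses 1 and 2, where 107 probe sets did. With array weights 15 of the genes and 4821 probe sets passed, but the estimation of the weights did not converge.

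Other genes of the same pathways, 56 listed and 48 measured, were counted beside the members. At 24 h 0 of 48 passed in limma, with 6 at an unadjusted p under 0.05, and at day 7 8 rose (16.7%) and 2 fell (4.17%), near or below the 18% and 8.43% of all named genes. PGM2, a phosphoglucomutase, changed by 2.48 ± 0.44 (adjusted p = 0.00582) and PYGL, the liver form of glycogen phosphorylase, by 1.85 ± 0.35 (adjusted p = 0.00726), both higher in 5 of 5. ENO3, the muscle enolase, changed by -1.20 ± 0.28 (adjusted p = 0.0133) and STC2, a secreted stanniocalcin, by -1.15 ± 0.28 (adjusted p = 0.0143), both lower in 5 of 5. The median change of the 48 genes at day 7 was 0.27.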

How the data were processed

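Total RNA from equine synovial fluid was measured on an Affymetrix equine array. The authors deposited log2 values, between 1.05 and 13.68 with 2 decimals, of 30559 probe sets in 18 columns for 6 horses at 3 times. Transcriptome Analysis Console 3.0, Affymetrix Expression Console and RMA are named in the submitters' processing notes without their roles. In the platform annotation 16789 probe sets had 1 symbol, 343 had several and 13427 had none. For arrays, their number limits the precision.

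Groups came from the titles. These also name the horse, which entered the fit as a fixed block. Residuals of same-horse arrays had a median correlation of 0.0149 (18 pairs) and those of different horses -0.0157 (78 pairs). The near-identical day 7 columns of horses 1 and 2 were averaged and given in equal parts to both horses, which leaves 17 arrays. Times were set against each other by lmFit and eBayes of limma 3.58.1, run in R 4.3.3 (9 residual degrees of freedom and 4.71 prior ones, two-sided tests), with Benjamini-Hochberg adjustment over all 30559 probe sets. The fit was run on simulated data with independent noise and added day 7 changes, without horse effects, differences in array spread or shifts with brightness. That run therefore says nothing about these features. Replicates are separate horses. Limma's p-values rest on the scatter left among arrays once horse and time are fitted, moderated over all probe sets. The arrays come from these 6 horses only, with 5 arrays at day 7. The members and gene lists were chosen with earlier results of these data known.

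Genes with values in every array were named by a rule: those called at 24 h, and in each role the pair with the smallest p and the gene with the lowest change at day 7; of other pathway genes, up to 4 called with the smallest p. CD163 was added as the gene with the largest change known from earlier work, and all other members are given in brief. Alternatives were the block, the arrays in the fit, normalization, filters, the variance model, array weights, the merged array, the SD of each array as covariate, and left-out horses and arrays. Plots used matplotlib 3.10.9 and Python 3.11.15.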

Additional observations from a re-analysis of the deposited data

Results flagged for a closer look

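In 8 of 138 groups of arrays, 1 array lay far from the others of its time by Dixon's criterion, where chance flags about 1 in 20. At 24 h, horse 4 had the highest PFKL, 6.16 against 5.34 in the next array, and the highest VEGFA, 4.63 against 3.49. Horse 3 had the highest PFKM at 24 h, 4.13 against 3.92, and horse 1 the highest ANKRD37, 3.90 against 2.86. At baseline, horse 4 had the highest VHL, 5.85 against 4.00, and the highest KDM3A, 6.28 against 4.85. At day 7 the array counted for horses 1 and 2 had the lowest ENO1, 9.14 against 10, and the lowest LDHA, 7.38 against 8.80.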

How the results depend on the processing

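Of the 46 genes, 2 passed at 24 h against baseline, 26 at day 7 against baseline and 0 at day 7 against 24 h. The counts at 24 h were 1 with no replicate block for the horse, 0 with only the arrays of both times, 0 after quantile normalization, 4 with 1 probe set per gene, 1 with a variance trend and robust estimation, 4 or 1 with the merged array given to horse 1 or horse 2, and 0 with the array spread as a covariate. Quantile normalization without the 24 h array of horse 2, chosen after seeing the data, gave 0 at 24 h. Leaving out a horse or an array gave 0 to 13 at 24 h, 12 to 30 at day 7 and 0 to 5 at day 7 against 24 h. Calls over all probe sets in these fits ran from 5 to 1257, from 1761 to 10934 and from 0 to 610. For day 7 against baseline the count was 0 with the array spread as a covariate, and 29 with no replicate block. For day 7 against 24 h it was 15 with array weights, whose estimation did not converge, and 1 with the merged array left out. Over all probe sets 4821 and 107 passed in these fits. No replicate block gave 437, 9227 and 0 called probe sets, against 310, 8343 and 0 with the block.

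With the array spread as a covariate, these changes at day 7 turned below 0 without passing: SLC2A3 -0.17, TPI1 -0.60, GAPDH -0.64, PGAM1 -0.60, ENO1 -0.077, PKM -0.62, LDHA -0.16, LDHB -0.31, SLC16A1 -0.11, PDK1 -0.27, PDHA1 -1.06, HIF1A -0.53, EGLN1 -0.64 and VHL -0.056. The cause was not tested. Of 37 other settings, PFKFB3 kept its 24 h call in 22 and TALDO1 in 14, and PGD kept its day 7 call in 36. The second probe set of a gene was not tried because no member has one, and ANKRD37 is absent where the dimmest of 4 classes is left out. Signal over background could not be judged from these values.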
